A study of Homo sapiens with 6 samples.

Results

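The genes described here are 7 that bind, make or cut hyaluronan: the receptors CD44 and HMMR, the synthases HAS2 and HAS3, and the hyaluronidases HYAL1, HYAL2 and HYAL3. They were taken by symbol, not by a threshold on values, from a table of 35238 gene symbols, and all 7 were found. The group was chosen by the low CD44 level already seen in the knockout in this comparison, so that difference is described and not tested. RNA was sequenced from the near-haploid human cell line HAP1, which carries 1 copy of most chromosomes, in 3 libraries of wildtype cells and 3 of cells in which DEGS1 was knocked out. DEGS1 encodes the desaturase that turns dihydroceramide into ceramide. Both groups were labelled untreated, were grown in the same serum-containing medium and gave RNA a day after passage. The labels do not say whether the knockout is 1 clone or several, nor whether the replicates were separate cultures, so every p-value rests on the differences among these libraries alone, and those may be technical.

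Hyaluronan is a long unsulfated sugar chain of the cell coat and matrix, built at the plasma membrane by the HAS enzymes from UDP-glucuronic acid and UDP-N-acetylglucosamine and pushed out of the cell as it grows. HYAL2, anchored at the cell surface, and HYAL1, in the lysosome, cut it into shorter pieces, and lysosomal exoglycosidases finish the work. CD44 is the main surface receptor: it binds hyaluronan through its outer link domain and the actin cytoskeleton through ezrin, radixin and moesin, and it is made in many splice forms, which counts per gene cannot tell apart. HMMR also binds hyaluronan but is best known inside the cell, as a spindle protein of dividing cells.

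Total counts per library ran from 17322756 to 28988522, and levels are given as CPM, counts per 1000000 after scaling of the libraries. DEGS1 stood at 95.5 to 123 CPM in wildtype and at 6.88 to 10.4 CPM in the knockout libraries, so the labels hold for the targeted gene. Each log2 fold change is knockout over wildtype and has its standard error (SE) beside it. Adjusted p-values are those of the edgeR quasi-likelihood test, by the Benjamini-Hochberg method over the 16954 genes tested. A gene was called at an adjusted p under 0.05. The number of calls depended on wildtype replicate 2: 756 genes (4.46%) were called with all libraries and 3825 of 17305 (22.1%) without it. Of 8 blood markers, a check made because HAP1 derives from a leukaemia line, SPI1 had no count in any library and KIT fell (log2 fold change -1.01, SE 0.22, adjusted p = 0.023, edgeR), a call lost without wildtype replicate 1 or knockout replicate 1 or 3 (up to 0.133), and the other 3 tested did not pass. The summed level of the blood list was 11.9 to 14.2 CPM in wildtype and 7.87 to 9.37 CPM in the knockout. KIT alone had a mean of 8.09 CPM and 4.03 CPM, so the lower sum is not a fall of the list as a whole. Of the 4 tested blood markers 2 had a positive log2 fold change and 2 a negative one, with CD34 at 1.13 CPM and 1.73 CPM.

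Of the 7 genes, 6 passed the filter on low counts and 1 of them was called, CD44, which was lower in the knockout. Over all tested genes 4.46% were called and 2.95% were called lower, and since CD44 was chosen for this difference nothing is read from its count. In 3 of the 6 the groups did not overlap; over all tested genes the share was 20.8%. These were CD44, below (11.6% of all tested genes), and HYAL2 and HYAL3, above (9.24%). An unadjusted p under 0.05 was reached by 3 of the 6, against 16.5% of all tested genes. The median log2 fold change was 0.01 over the 6 genes and -0.02 over all tested genes. HAS2 did not pass the filter. The plot of levels by library shows the size of these differences beside the spread.

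**Figure D1:**
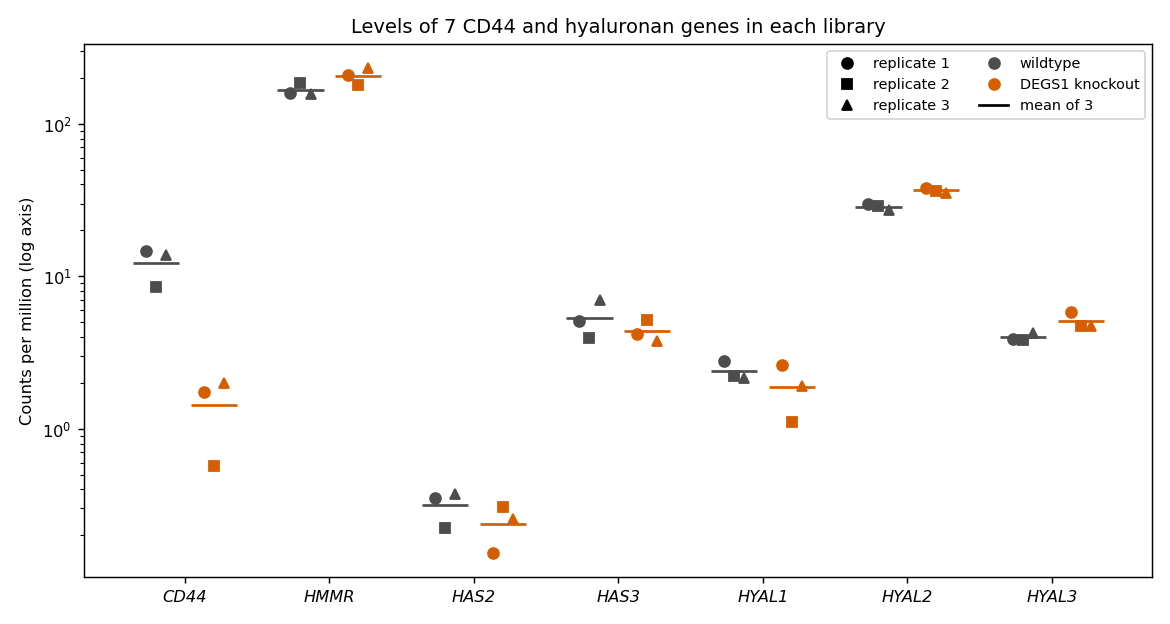
Level of each of the 7 genes in CPM (log axis) in the 3 wildtype (grey) and 3 knockout (orange) libraries; the marker shape gives the replicate number and the line the mean of 3. CD44 is the gene whose groups lie far apart, from 8.51 to 14.6 CPM in wildtype and from 0.574 to 2 CPM in the knockout, while HMMR, HAS2, HAS3 and HYAL1 overlap.

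CD44, on chromosome 11, was measured well above the floor in wildtype cells and was low in each knockout library. It had 372, 229 and 257 counts in wildtype replicates 1, 2 and 3, or 14.6, 8.51 and 13.8 CPM. In the knockout libraries it had 34, 15 and 55 counts, or 1.74, 0.574 and 2 CPM. The lowest wildtype library was still 4.24-fold above the highest knockout library, and within each genotype the library numbered 2 was the lowest. The mean fell from 12.3 ± 3.31 to 1.44 ± 0.762 CPM (SD, n = 3 each), which is 11.7% of the wildtype level. The fitted log2 fold change was -3.10 (SE 0.39, 95% interval -3.96 to -2.23), an 8.55-fold difference. By size it was the 77th lowest of the 16954 tested genes. Summed over libraries, 858 counts stood against 104, a scaled ratio of 8.49 with an exact 95% interval of 6.92 to 10.5 that covers counting error only.

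The level of CD44 also varied among the knockout libraries. Exact 95% Poisson intervals, which cover counting error only, were 0.321 to 0.946 CPM in replicate 2 and 1.51 to 2.61 CPM in replicate 3. The coefficient of variation was 52.9% in the knockout and 26.9% in wildtype. Without knockout replicate 2 the log2 fold change was -2.70, and without knockout replicate 3 it was -3.44, the extremes over the 17 other settings tried. In these bulk libraries, fewer cells with CD44 and less CD44 RNA per cell cannot be told apart. GENCODE 29 places an antisense gene, CD44-AS1, over exons of CD44. The strand setting of the counting is not given in the sources used here, and the table has no row under that name.

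Like CD44, 2 epithelial markers were called lower in the knockout. Of 6 epithelial markers, the adhesion molecule EPCAM (log2 fold change -3.01, SE 0.45) and the tight junction protein CLDN1 (-3.50, SE 0.30) fell, in all 17 other settings too, and CDH1 did not pass (-0.20, SE 0.29, adjusted p = 0.774, edgeR). EPCAM had 52, 76 and 30 counts in the wildtype libraries and only 8, 8 and 3 in the knockout libraries. CLDN1 had 169, 252 and 121 counts against 9, 16 and 24. Their knockout levels were thus near the limit of detection. KRT5, KRT14 and KRT19 had no count in any library. The summed level of the list was 12.9 to 14.7 CPM in wildtype and 3.48 to 4.82 CPM in the knockout. CLDN1 alone had a mean of 7.49 CPM and 0.649 CPM. Of 6 mesenchymal markers VIM rose, a call lost without wildtype replicate 1 or knockout replicate 1 or 3 (edgeR adjusted p up to 0.0841), and the other 4 tested did not pass edgeR's test. DESeq2 also called CDH2, the N-cadherin gene, whose edgeR log2 fold change was 0.39 (SE 0.11, adjusted p = 0.0752, edgeR). FN1, encoding fibronectin, lay the other way (-0.54, SE 0.21, adjusted p = 0.223, edgeR), with overlapping groups. The summed level of the list was 543 to 596 CPM in wildtype and 780 to 929 CPM in the knockout, of which VIM alone had a mean of 421 CPM and 712 CPM. The part of these marker genes in the CD44 difference was not tested. Wildtype replicate 2 had the lowest CD44 of the wildtype libraries but the highest EPCAM (2.82 CPM against 2.04 and 1.61) and the highest CLDN1 (9.36 CPM against 6.64 and 6.48). The epithelial splicing factor ESRP1, in contrast, was lowest in replicate 2 of each genotype, as CD44 was. What lies behind these orders was not tested.

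Among genes that regulate the splicing of CD44, 1 of 9 tested fell and 8 did not pass. The one that fell was ESRP1, the epithelial splicing factor that keeps the variable exons of CD44 in. It stood at 5.9, 4.75 and 6.16 CPM in wildtype and at 2.15, 0.956 and 2.73 CPM in the knockout, with every knockout library below every wildtype library. Its log2 fold change was -1.52 (SE 0.33, adjusted p = 0.0241, edgeR). The call was lost with library size only (adjusted p = 0.0644, edgeR), without wildtype replicate 1 (0.0621) and without knockout replicate 1 (0.0706). Its relative ESRP2 had overlapping groups, with a log2 fold change of -0.49 (SE 0.42, adjusted p = 0.604, edgeR). The general factors SRSF1, HNRNPL, HNRNPM and TRA2B had log2 fold changes between 0.04 and 0.13, none past the test. HNRNPA1 (0.23, SE 0.22), KHDRBS1 (-0.14, SE 0.12) and PCBP1 (-0.30, SE 0.12, adjusted p = 0.21, edgeR) lay further from 0. PCBP1 was lower in each knockout library than in any wildtype library. With ESRP1 it made 2 of 9 with an edgeR p under 0.05 before adjustment, against 16.5% of all tested genes.

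**Figure D2:**
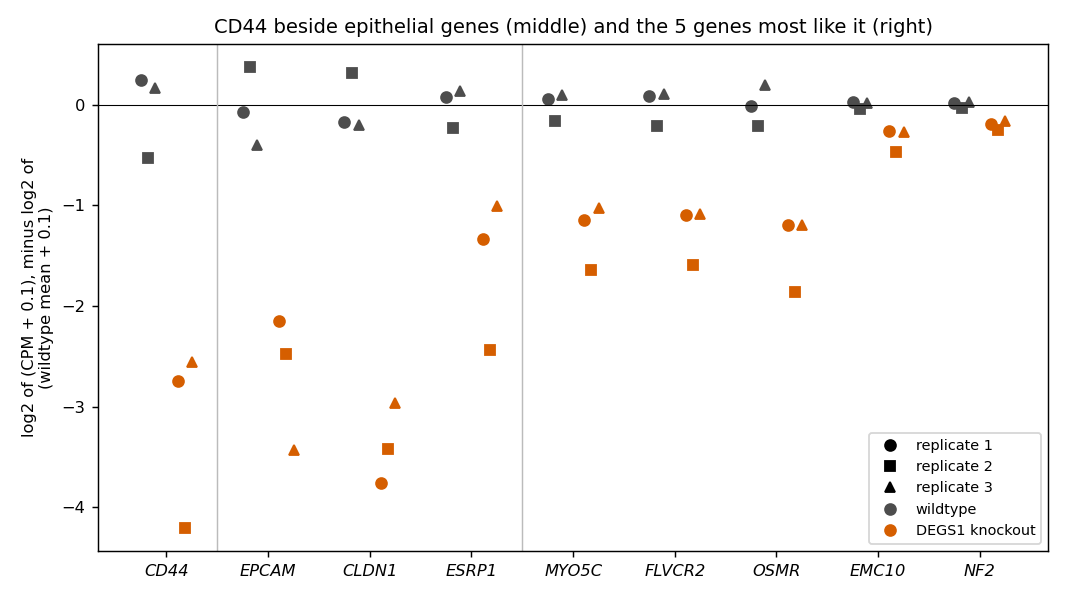
Log2 of (CPM + 0.1) in each library minus that of the wildtype mean, with CD44 on the left. In the middle are EPCAM and CLDN1, the epithelial markers that were called, and the epithelial splicing factor ESRP1. CDH1, the other tested epithelial marker, is not drawn (log2 fold change -0.20, SE 0.29, not called). On the right are the 5 genes whose pattern was most like that of CD44. Grey points are wildtype, orange points knockout, and shapes give the replicate number. The square of replicate 2 is the lowest in each genotype for CD44 and ESRP1, but not for EPCAM or CLDN1. It is also the lowest for the 5 genes on the right, which were picked for their likeness to CD44 over these libraries.

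The 5 genes most like CD44, by Pearson correlation of log2 CPM over the 6 libraries among 10461 genes with a mean log2 CPM above 3, were MYO5C (r = 0.998), FLVCR2 (0.998), EMC10 (0.996), NF2 (0.995) and OSMR (0.995). The 6 points of each correlation fall into 2 genotypes and share library and depth, so r is a description of the pattern. MYO5C, an unconventional myosin, stood at 33.5, 28.7 and 34.5 CPM in wildtype and at 14.5, 10.3 and 15.8 CPM in the knockout. OSMR, the oncostatin M receptor, stood at 25.5, 22.2 and 29.5 CPM and at 11.1, 7 and 11.2 CPM. In these 5 genes, as in CD44, replicate 2 was the lowest library of each genotype. The genes were picked for their likeness to CD44 over these same libraries, so nothing is read from that shared order. Wildtype and knockout libraries of the same number also share a code in the labels, which do not say what it stands for. The 5 genes differed less between genotypes than CD44. Log2 fold changes were -1.25 (SE 0.16) for MYO5C, -1.25 (SE 0.19) for the transporter FLVCR2 and -1.40 (SE 0.19) for OSMR. EMC10 (log2 fold change -0.34, SE 0.12) and NF2 (-0.20, SE 0.10) did not pass edgeR's test (adjusted p = 0.178 and 0.353).

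Of the 6 tested hyaluronan receptors, 5 did not pass with all libraries, and the other was CD44 itself. HMMR, on chromosome 5, stood at 159, 187 and 157 CPM in wildtype and at 207, 179 and 232 CPM in the knockout. Knockout replicate 2 lay below wildtype replicate 2, so the groups overlapped. The log2 fold change of HMMR was 0.30 (SE 0.13, 95% interval 0.00 to 0.59, adjusted p = 0.294, edgeR). Without wildtype replicate 2 it was 0.39 and passed (adjusted p = 0.0253, edgeR), in a fit that called 22.1% of all tested genes and 10.6% as higher. Of 15 other genes of the mitotic spindle and cell division, 0 were called by edgeR, DESeq2 or limma voom, 0 had an edgeR p under 0.05 before adjustment, and their log2 fold changes ran from -0.31 (MKI67) to 0.18 (CDC20) with a median of 0.12. TPX2 (0.14, SE 0.13) and AURKA (0.18, SE 0.13), which work with HMMR at the spindle, were within that range. For comparison, edgeR called 4.46% of all tested genes, and 16.5% had a p under 0.05 before adjustment.

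Among receptors outside the 7 genes, LAYN, the membrane lectin layilin, lay higher in the knockout without passing the test. It stood at 12.3, 12 and 9.05 CPM in wildtype and at 14.3, 12.6 and 17.2 CPM in the knockout, with no overlap between the groups. Its log2 fold change was 0.40 (SE 0.17, adjusted p = 0.279, edgeR). The scavenger receptors STAB1 and STAB2 were under 1.5 CPM in each library, and their log2 fold changes were -0.69 (SE 0.51) and -0.79 (SE 0.46), neither past the test. LYVE1, the receptor of lymphatic vessels, and TLR4 did not pass the filter on low counts.

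The synthases were low in both genotypes. HAS3, on chromosome 16, stood at 5.07, 3.94 and 6.96 CPM in wildtype and at 4.16, 5.2 and 3.79 CPM in the knockout, and the groups overlapped. Its log2 fold change was -0.27 (SE 0.25, 95% interval -0.83 to 0.28, adjusted p = 0.637, edgeR). The 207 genes on its side of chromosome 16 had a median shift of -0.30 between the genotypes. With that shift removed, which was tried only after the values were seen, the log2 fold change of HAS3 was 0.03 (adjusted p = 0.966, edgeR), so no direction can be given for it. GENCODE 29 also places exons of CHTF8 over HAS3 on the other strand.

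HAS2, the main synthase of many mesenchymal cells, was close to the limit of detection. Its counts were 9, 6 and 7 in wildtype libraries and 3, 8 and 7 in knockout libraries. The sum of 22 counts against 18 gave a wildtype to knockout ratio of 1.26 with an exact 95% interval of 0.644 to 2.49, so no difference was detectable at this depth, in either direction. HAS1 had 2 counts in wildtype replicate 3 and none in the other libraries. A floor of 3 counts corresponds to 0.109 to 0.161 CPM per library.

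Of 7 enzymes that supply the sugar nucleotides, 2 fell and 5 did not pass by edgeR with all libraries. UGP2, which makes UDP-glucose, fell from 113 ± 7.69 to 83.5 ± 5.2 CPM (SD, n = 3 each; log2 fold change -0.43, SE 0.11, adjusted p = 0.0435, edgeR). GNPNAT1, an acetyltransferase on the way to UDP-N-acetylglucosamine, fell from 130 ± 16.2 to 91 ± 7.29 CPM (-0.52, SE 0.12, adjusted p = 0.0356, edgeR). Both were lower in each of the 3 knockout libraries than in any wildtype library, but both calls were narrow. UGP2 lost its call in 8 of 17 other settings (edgeR adjusted p up to 0.282) and GNPNAT1 in 7 (up to 0.224), and neither passed without wildtype replicate 1 or without any 1 of the 3 knockout libraries. UGP2 was also lost without wildtype replicate 3 (0.0625). GNPNAT1 lies on chromosome 14, whose genes had a median shift of -0.19, and it stood at -0.33 on the log2 scale once chromosome medians were removed (adjusted p = 0.18, edgeR).

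The remaining enzymes of that supply did not pass edgeR's test with all libraries, and they lay on both sides of 0. UGDH, which oxidises UDP-glucose to UDP-glucuronic acid, had a log2 fold change of 0.03 (SE 0.12). GFPT2, an enzyme that lets sugar into the hexosamine pathway, stood at 18.2, 19.4 and 19 CPM in wildtype and at 26.9, 21.6 and 30.8 CPM in the knockout (0.49, SE 0.14, adjusted p = 0.0894, edgeR). GFPT2 passed as higher in 4 of 17 other settings: by DESeq2 (adjusted p = 0.0484), with no filter (0.0461, edgeR), without wildtype replicate 2 (0.0277, edgeR) and without knockout replicate 2 (0.0302, edgeR). The mutase PGM3 had a log2 fold change of 0.35 (SE 0.12, adjusted p = 0.169, edgeR). UAP1 was the one below 0 (-0.24, SE 0.12, adjusted p = 0.36, edgeR), with overlapping groups. The groups of GFPT1 (0.23, SE 0.12, adjusted p = 0.379, edgeR), GFPT2 and PGM3 did not overlap, with the knockout above. With UGP2 and GNPNAT1, which lay below, 5 of the 7 supply genes did not overlap. Over all tested genes the share was 20.8%.

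The 3 hyaluronidase genes sit next to each other on chromosome 3 and none of them was called with all libraries. HYAL2 held 81% to 86.2% of the counts of the 3 genes in each library, unadjusted for length. It stood at 29.9, 28.9 and 27.2 CPM in wildtype and at 38.2, 36.3 and 35.4 CPM in the knockout. All knockout libraries were above all wildtype libraries, and the coefficient of variation was the smallest of the 7 genes in both genotypes (4.87% and 4%). Its log2 fold change was 0.35 (SE 0.10, 95% interval 0.12 to 0.58), and it did not pass over all genes (adjusted p = 0.092, edgeR). Without wildtype replicate 2 it was 0.36 and passed (adjusted p = 0.0265, edgeR).

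HYAL3, whose own enzyme activity is weak, stood at 3.89, 3.83 and 4.23 CPM in wildtype and at 5.8, 4.7 and 4.7 CPM in the knockout. The groups did not overlap, and the log2 fold change was 0.35 (SE 0.21, 95% interval -0.11 to 0.80, adjusted p = 0.452, edgeR). HYAL1 had its highest level in wildtype replicate 1 (2.79 CPM, beside 2.23 and 2.14) and stood at 2.62, 1.11 and 1.9 CPM in the knockout, so its groups overlapped. Its log2 fold change was -0.37 (SE 0.33, 95% interval -1.09 to 0.36, adjusted p = 0.627, edgeR), and knockout replicate 2 carried most of it: without that library it was -0.09. In GENCODE 29 exons of TUSC2 overlap HYAL2, and exons of IFRD2 and NAA80 overlap HYAL3, on the same strand, so the counting could have shared reads among them. TUSC2 had a log2 fold change of 0.15 (SE 0.18) and IFRD2 one of -0.04 (SE 0.11), neither past the test.

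Other genes that break down hyaluronan did not pass either. Of 9 tested genes of this group, the 3 above included, 0 were called by edgeR, DESeq2 or limma voom, 2 had an edgeR p under 0.05 before adjustment, HYAL2 among them, and 6 had a positive log2 fold change, with a median of 0.15. The edgeR shares over all tested genes were 4.46% called and 16.5% with such a p. TMEM2, the table's symbol for the surface hyaluronidase CEMIP2, stood at 152, 184 and 147 CPM in wildtype and at 167, 253 and 195 CPM in the knockout (0.35, SE 0.16, adjusted p = 0.306, edgeR). CEMIP, a secreted hyaluronan-binding protein needed for depolymerisation, was near 3 CPM in both genotypes, with a log2 fold change of -0.10 (SE 0.29).

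**Figure D3:**
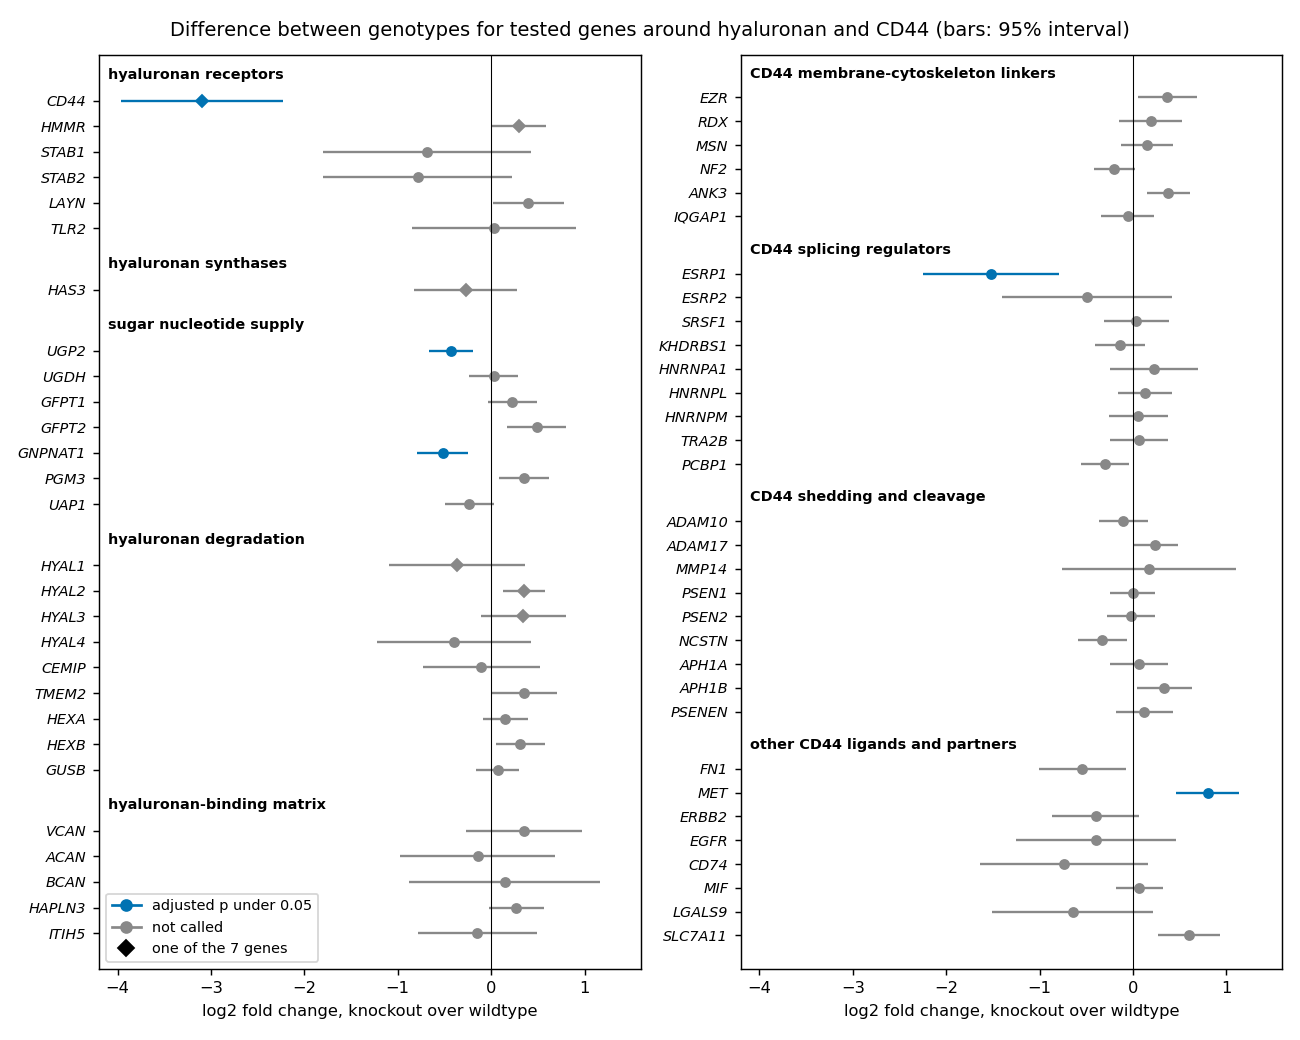
Log2 fold change (knockout over wildtype) with its 95% interval for the tested genes of 9 groups around hyaluronan and CD44; blue marks an adjusted p under 0.05, grey marks genes that were not called, and diamonds mark members of the 7 genes. CD44 at -3.10 stands apart from the rest, among which ESRP1 at -1.52 is the lowest and MET at 0.80 the highest.

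Of 69 tested genes around these 7, in 10 groups by role, 1 rose and 3 fell, or 5.8% against 4.46% of all tested genes (1.51% higher and 2.95% lower). The one that rose was MET, the growth factor receptor for which some splice forms of CD44 act as a co-receptor. MET stood at 66.8, 67.3 and 75.7 CPM in wildtype and at 95.1, 150 and 119 CPM in the knockout, with no overlap (log2 fold change 0.80, SE 0.15, adjusted p = 0.0106, edgeR). MET kept its call in all 17 other settings, with an adjusted p of up to 0.0493. Its ligand HGF did not pass the filter on low counts. SLC7A11, the cystine transporter that variant CD44 is known to hold at the membrane, narrowly missed with all libraries (0.60, SE 0.15, adjusted p = 0.0506, edgeR) and passed in 6 of 17 other settings.

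The proteins that tie CD44 to the cytoskeleton were measured at high levels and did not pass: 0 of 6 were called by edgeR or limma voom, 1 by DESeq2 (ANK3), and 2 had an edgeR p under 0.05 before adjustment, EZR and ANK3. EZR, encoding ezrin, stood at 251, 292 and 230 CPM in wildtype and at 374, 291 and 334 CPM in the knockout (log2 fold change 0.37, SE 0.14, adjusted p = 0.213, edgeR). RDX, encoding radixin, had a log2 fold change of 0.19 (SE 0.16), and MSN, encoding moesin, had 0.15 (SE 0.13). ANK3, an ankyrin, had one of 0.38 (SE 0.10, adjusted p = 0.0661, edgeR) and passed in 4 of 17 other settings. Of 9 tested genes that shed or cleave CD44, 0 were called by edgeR, DESeq2 or limma voom and 2 had an edgeR p under 0.05 before adjustment, with ADAM10 at -0.10 (SE 0.12) and the gamma-secretase subunit NCSTN, the smallest p of the group, at -0.33 (SE 0.12, adjusted p = 0.181, edgeR). Beside the counts of both groups, edgeR called 4.46% of all tested genes, and 16.5% had a p under 0.05 before adjustment.

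The matrix proteins that bind hyaluronan were mostly not expressed at a level that could be tested. Of 16 genes, 5 passed the filter, and 0 of these were called by edgeR, DESeq2 or limma voom or had an edgeR p under 0.05 before adjustment. With shares of 4.46% (called by edgeR) and 16.5% (such a p) over all tested genes, little can be read from 0 of 5. VCAN, the large proteoglycan versican, stood at 37.7, 18.9 and 40.4 CPM in wildtype and 36.5, 49 and 38 CPM in the knockout (log2 fold change 0.35, SE 0.27). Its spread in wildtype came from replicate 2, the lowest library. The link protein gene HAPLN3 had the smallest p of the group (0.27, SE 0.13, adjusted p = 0.345, edgeR).

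Levels of different genes were compared per kilobase of the longest GENCODE 29 transcript, which is approximate because the annotation behind the counts is not given. In wildtype the order was HMMR at 54 ± 5.36 CPM per kilobase (SD, n = 3), HYAL2 at 7.07 ± 0.344, CD44 at 2.15 ± 0.578, HYAL3 at 2.05 ± 0.112, HAS3 at 1.26 ± 0.362, HYAL1 at 0.949 ± 0.14 and HAS2 at 0.0757 ± 0.0197. CD44 and HYAL3 did not differ beyond their spread, nor did HAS3 and HYAL1. In the knockout CD44 fell to 0.251 ± 0.133 CPM per kilobase, below HYAL1 at 0.744 ± 0.3 and above HAS2 at 0.0569 ± 0.0185. The other 6 genes kept their order.

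**Figure D4:**
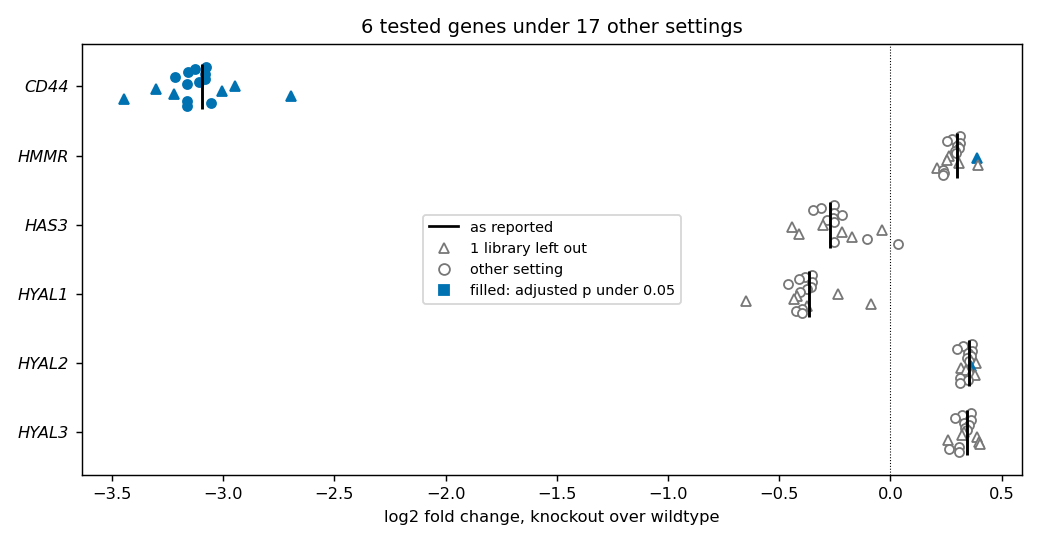
Log2 fold change (knockout over wildtype) of the 6 tested genes as reported (black line) and under 17 other settings; triangles leave out 1 library, circles are other settings, and filled symbols have an adjusted p under 0.05. CD44, for whose difference the group was chosen, lies between -3.44 and -2.70, while HMMR and HYAL2 have 1 filled symbol each, the fit without wildtype replicate 2.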

How the data were processed

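The authors deposited raw counts, whole numbers of reads for each gene symbol. The submitters' processing notes name bcl2fastq 2.20 and the build hg19. Per the labels' protocols, 1 stranded total RNA library was made per sample and read as single ends. Aligner, counter, annotation and strand setting: not given in the sources used here. Names, lengths and overlaps came from GENCODE 29 and RefSeq tables of GRCh38, and no coordinates are printed. Of 137 genes in the lists, 136 were matched by symbol, 1 of them through another symbol.

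The test was the quasi-likelihood F test of edgeR 4.0.16 (R 4.3.3), with genotype alone as the term, trimmed mean of M values scaling and edgeR's expression filter. The SE was taken from the log2 fold change and its F value. Depth per library was 17322756 to 28988522 counts, and intervals on counts cover counting error only. Replicates of 1 genotype differed by more than sampling noise (chi-square per degree of freedom 11.7 to 48.2). The pipeline was tested on simulated counts, with the same variation set for every gene. It recovered 20% of 1.5-fold changes, 86.2% of 2-fold changes and 100% of 4-fold changes, with 9 false calls. The lack of a call thus does not show that a gene was unchanged.

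The genes, lists and tests were chosen with earlier results of these data known. The naming rule took all 7 genes, up to 4 called genes per list or the one with the smallest p, and the 5 genes most like CD44 and HMMR; other list genes were named after their values were seen. In the lists, 1 gene is counted but not reported by name here. Alternatives were DESeq2 1.42.0 size factors and its Wald test, upper-quartile scaling, library size only, limma 3.58.1 voom, no filter, a minimum of 1 CPM in 3 libraries, a replicate block, leaving out each library, and chromosome medians removed. Removal of the trend on transcript length and GC content and chromosome 16 in 2 parts were added after seeing the data.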

Additional observations from a re-analysis of the deposited data

How the results depend on the processing

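The log2 fold change of CD44, for which the group was chosen, ran from -3.44 to -2.70 over 17 other settings. Leaving out 1 library at a time gave 380 to 3825 changed genes, against 756; wildtype replicates 1 and 2 gave 441 and 3825 when left out, and knockout replicates 1 and 3 gave 424 and 380. Without wildtype replicate 2, HMMR (log2 fold change 0.39) and HYAL2 (0.36) were also called higher; over the fits that left out 1 library HMMR ran from 0.21 to 0.39 and HYAL2 from 0.32 to 0.39. HAS3 turned from -0.27 to 0.032 with chromosome medians removed and chromosome 16 taken in 2 parts. HYAL1 and HYAL3 kept their direction and stayed uncalled in all 17. HAS2 entered the test with no filter (-0.35 on the log2 scale, SE 0.60, adjusted p = 0.835, edgeR) and without knockout replicate 1 (-0.14, SE 0.59, adjusted p = 0.935, edgeR). Of 510 values of 30 other named genes under these settings, 464 kept direction and side of the threshold, 24 lost a call, 22 gained one and 0 turned. With the replicate block 1082 genes changed, CD44 stood at -3.16 and no call among the 7 changed. Same-numbered libraries share a code in the labels, whose meaning is not given there. They had deviations correlated at 0.26, 0.41 and -0.23, and wildtype replicate 3 correlated best with another number. Deviations from a mean of 3 libraries depend on one another, so these values cannot decide whether the number pairs the libraries. The test as reported has no pairing, and the replicate block is given as an alternative. The causes of these dependences were not tested.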

Other observations

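The tested neighbours of CD44 and of the hyaluronidase genes on their chromosomes were not called with all libraries. Of 10 genes around CD44, 8 were tested, and their median log2 fold change was 0.06. Among the 8, 0 were called by edgeR, DESeq2 or limma voom and 0 had an edgeR p under 0.05 before adjustment. By edgeR 4.46% of all tested genes were called and 16.5% had such a p, so little can be read from 0 of 8. EHF and PAMR1 did not pass the filter on low counts. Summed over libraries, EHF had 18 counts in wildtype and 3 in the knockout, and PAMR1 had 14 and 4, so both were lower there but untested. PDHX, a subunit of pyruvate dehydrogenase, had a log2 fold change of 0.08 (SE 0.12), and the glutamate transporter SLC1A2, at under 2 CPM in each library, had one of -0.57 (SE 0.37, adjusted p = 0.483, edgeR), the lowest of the 8. LDLRAD3, a receptor-related membrane protein, had the smallest p (0.23, SE 0.15, adjusted p = 0.482, edgeR). Of 12 tested neighbours of the hyaluronidase genes, 0 were called by these 3 tools and 0 had an edgeR p under 0.05 before adjustment, with a median of 0.12. The same shares over all tested genes apply. The smallest p among them was that of GNAI2, a G protein subunit (0.22, SE 0.11, adjusted p = 0.365, edgeR). Without wildtype replicate 2, in the fit that called 22.1% of all tested genes, LDLRAD3 (0.39, adjusted p = 0.0469, edgeR) and GNAI2 (0.31, adjusted p = 0.0236, edgeR) passed as higher.

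The 5 genes most like HMMR over the 6 libraries were AKR1A1 (r = 0.993), HSPB1 (0.985), ZCCHC9 (0.984), DNAJC17 (0.983) and CEP55 (0.982), a description over points that share library and depth. CEP55, a protein of the midbody in dividing cells, stood at 108, 124 and 107 CPM in wildtype and at 142, 128 and 152 CPM in the knockout (log2 fold change 0.31, SE 0.12, adjusted p = 0.198, edgeR). None of the 5 was called by edgeR with all libraries. HSPB1, ZCCHC9 and CEP55 had an unadjusted edgeR p under 0.05, as had 16.5% of all tested genes. The same 3 passed without wildtype replicate 2, in the fit that called 22.1% of all tested genes. HMMR did both, and the 5 were picked for their likeness to HMMR over these same libraries, so nothing is read from this. By DESeq2's test HSPB1 passed (adjusted p = 0.0376).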
